A study of Mus musculus with 33 samples.

Results

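The genes described here make cholesterol and fatty acids, control that synthesis, or carry cholesterol out of the cell, and they were followed across the regions and sorted thymocytes of the mouse thymus. The list held 34 gene symbols, and every probe set of those symbols was taken (74 probe sets). One gene, Acat2, had no probe set under that symbol and was dropped, which left 33 members among the 13463 genes that passed the filter on low signal. The list was chosen with earlier results of these arrays known and is read along the order of the cortical subregions, so all values of the subregions are descriptions and carry no test.

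Cholesterol is built from acetyl-CoA through mevalonate, farnesyl diphosphate and squalene, and the sterol rings are then trimmed in a chain of reactions in the endoplasmic reticulum. The pathway is switched on by the SREBP transcription factors, which are escorted to the Golgi by SCAP when membranes are poor in sterol and are held back by the INSIG proteins when sterol is plentiful. Most genes of the pathway are SREBP targets, and so are the enzymes of fatty acid synthesis, whereas ABCA1 and ABCG1, which export cholesterol, are induced by the sterol-sensing LXR receptors. Dividing lymphocytes need new membrane, and sterol synthesis is known to be high in proliferating T cells.

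RNA was measured on 33 Affymetrix arrays, all from thymus of C57BL/6J male mice aged 4 to 6 weeks with no genetic change or treatment given in the labels. Microdissected tissue gave whole cortex (n = 7), whole medulla (n = 7), and subcapsular, central and perimedullary cortex (n = 3 each), where subcapsular cortex lies under the capsule and perimedullary cortex borders the medulla. Flow-sorted cells gave cortical thymocytes (n = 5), which were CD45+, CD3-/lo and positive for CD90 or CD117, and mature thymocytes of the medullary type (CD3hi and CD45+, n = 5), here called medullary thymocytes. Tissue holds stroma as well as thymocytes, and in such bulk samples fewer cells of a type and less RNA per cell cannot be told apart. RNA of tissue and RNA of sorted cells came from different extraction kits, so wherever these are compared the effects of kit and source cannot be told apart. The labels call the arrays biological replicates but do not tie regions to animals, so some regions may share an animal and p-values over regions may then be too small.

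The values are linear array signals whose precision is set by how many arrays each group has. Array medians ranged from 71.9 to 163. The arrays also differed in their upper tail: 13 of them (whole cortex 1 to 5, whole medulla 1 to 5 and medullary thymocytes 1 to 3) had 0.1% of their probe sets above a value higher than 42000, and the calls in tissue and in sorted cells that changed without them are given both ways. Markers of the labels were read in whole tissue and in sorted cells. Against whole cortex, whole medulla was higher for 7 of 7 mature thymocyte markers and 7 of 8 medullary epithelial markers (18.7% of all genes). It was lower for 9 of 9 double-positive thymocyte markers and 5 of 8 cortical epithelial markers (5.39% of all genes). The other cortical epithelial markers, Dll4 (0.01), Ly75 (-0.89) and Foxn1 (0.96), did not pass the fold threshold. In sorted cells, 7 of 7 mature markers were higher (7.69% of all genes) in medullary than in cortical thymocytes. There 8 of 9 double-positive markers were lower (6.31% of all genes).

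Promoter windows were read for the members, since many of them had the same order over the cortex. RefSeq (GRCm38.p6) gave the 250 bases before the transcription start for 26 of the 34 listed genes. The CCAAT box, the binding sequence of NF-Y, which acts together with SREBP at many sterol genes, was present on either strand (as CCAAT or ATTGG) in 20 of these 26 genes (76.9%), against 37.5% of 27025 genes. The sterol regulatory element searched, TCACNCCAC on either strand, was found in 1 of 26 (3.85%), Hmgcs1, against 1.22% of all genes. These matches describe the letters in this window and are no evidence of binding. The windows of 4 members whose signal was highest under the capsule and lowest next to the medulla are shown with that of Abca1, the member with the opposite order. They are Hmgcs1 (chr13:119690101-119690350, plus strand), Idi1 (chr13:8885356-8885605, plus strand), Msmo1 (chr8:64733579-64733828, minus strand), Fasn (chr11:120824548-120824797, minus strand) and Abca1 (chr4:53159896-53160145, minus strand). Each is printed 5′ to 3′ along the gene, and capitals mark the motif matches.
Hmgcs1: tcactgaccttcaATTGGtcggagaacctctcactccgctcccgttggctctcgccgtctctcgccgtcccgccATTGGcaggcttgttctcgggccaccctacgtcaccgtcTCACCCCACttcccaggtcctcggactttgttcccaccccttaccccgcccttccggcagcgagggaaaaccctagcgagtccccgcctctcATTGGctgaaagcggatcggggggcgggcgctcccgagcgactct
Idi1: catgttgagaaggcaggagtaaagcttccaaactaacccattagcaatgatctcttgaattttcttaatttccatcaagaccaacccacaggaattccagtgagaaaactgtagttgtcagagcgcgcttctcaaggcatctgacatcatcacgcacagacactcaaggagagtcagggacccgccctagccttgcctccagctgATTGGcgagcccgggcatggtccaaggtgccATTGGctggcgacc
Msmo1: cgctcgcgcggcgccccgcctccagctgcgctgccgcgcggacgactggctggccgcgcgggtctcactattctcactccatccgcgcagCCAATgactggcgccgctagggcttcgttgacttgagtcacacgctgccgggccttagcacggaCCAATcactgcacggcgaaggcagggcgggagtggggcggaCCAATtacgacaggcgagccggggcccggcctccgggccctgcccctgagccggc
Fasn: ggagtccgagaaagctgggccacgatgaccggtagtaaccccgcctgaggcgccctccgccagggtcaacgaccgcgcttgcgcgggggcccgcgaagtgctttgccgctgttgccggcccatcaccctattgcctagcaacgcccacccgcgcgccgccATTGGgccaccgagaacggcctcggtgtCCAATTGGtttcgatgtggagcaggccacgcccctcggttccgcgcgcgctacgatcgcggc
Abca1: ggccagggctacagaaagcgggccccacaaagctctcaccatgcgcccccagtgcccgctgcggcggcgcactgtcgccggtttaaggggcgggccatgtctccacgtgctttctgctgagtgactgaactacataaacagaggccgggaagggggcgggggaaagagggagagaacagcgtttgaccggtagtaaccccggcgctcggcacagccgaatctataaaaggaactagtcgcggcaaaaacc
Hmgcs1 held 1 sterol regulatory element and 3 CCAAT boxes, which did not overlap it. Idi1 held 2 CCAAT boxes, Msmo1 held 3, and Fasn held 3, of which 2 overlap. The Abca1 window held 0 matches to either motif. The windows of Scap, Acly, Acaca and Elovl6, whose means fell from subcapsular to perimedullary cortex, also held no match. Mvd, Sc5d, Dhcr7, Srebf1 and Insig2, whose means did not have that order, held CCAAT boxes.

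Across the cortex, most of the synthesis genes were highest in the subcapsular zone and lowest in the perimedullary zone, and the 2 cholesterol exporters were lowest under the capsule. Group means were ordered subcapsular over central over perimedullary for 23 of the 33 members, an order held by 26.4% of all genes. In 9 members the single arrays were in that order without exception (4.44% of all genes): Hmgcs1, Idi1, Fdft1, Sqle, Cyp51, Msmo1, Insig1, Tmem97 and Fasn. Abca1 alone had all arrays in the opposite order (3.23% of all genes). Of the other means, central cortex was highest in 5 members (26% of all genes) and lowest in 4 (24.9%), and 1 member, Abca1, had means in the opposite order (22.8%). Between perimedullary and subcapsular cortex, arrays did not overlap for 22 members that were lower in perimedullary cortex (24.3% of all genes) and for 3 that were higher (21.9%). The median log2 difference of the members was -0.7, and that of all genes was 0. These shares describe members chosen with these arrays in view.

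**Figure D1:**
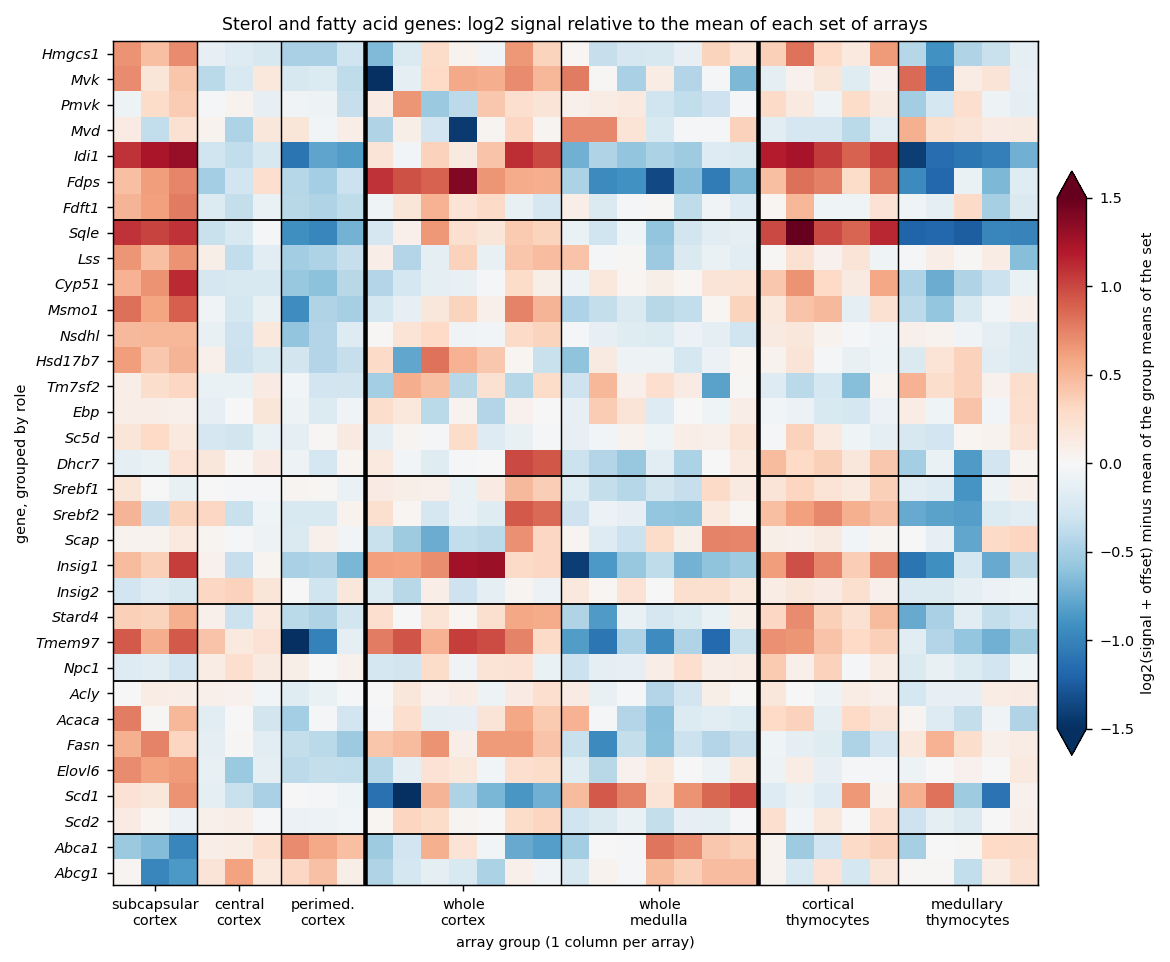
Colour gives log2(signal + offset) of each of the 33 members (rows, grouped by role) on each array (columns), relative to the mean of the group means within 1 of 3 sets of arrays: the cortical subregions, whole cortex with whole medulla, and the sorted thymocytes. Most rows pass from red in subcapsular cortex to blue in perimedullary cortex, and the row of Abca1 runs the other way; in sorted cells Idi1 and Sqle have the deepest contrast.

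In the mevalonate and squalene branch, 5 of 7 members were lower in perimedullary than in subcapsular cortex without overlap (24.3% of all genes). Idi1, the isopentenyl diphosphate isomerase, gave signals of 4400, 4840 and 5130 in subcapsular, 1670, 1590 and 1730 in central, and 946, 1180 and 1140 in perimedullary cortex. The 3 zones did not overlap, and the perimedullary level was 2.12 lower on the log2 scale than the subcapsular one (4.33-fold). Hmgcs1, the HMG-CoA synthase at the entry to the pathway, gave 11200, 9590 and 11500, then 6450, 6120 and 5920, then 5020, 5010 and 5720 in the same order of zones. Its perimedullary arrays were all below the central ones by a small margin, and its 5 probe sets were each lower in perimedullary than in subcapsular cortex, by log2 differences from -1.63 to -0.46.

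Fdft1, squalene synthase, which commits farnesyl diphosphate to sterols, gave 2670, 2870 and 3230 in subcapsular, 1610, 1450 and 1740 in central, and 1390, 1360 and 1420 in perimedullary cortex. Its subcapsular arrays stood well above the rest, with a perimedullary difference of -1.05. Fdps, farnesyl diphosphate synthase, gave 317, 364 and 393, then 151, 180 and 273, then 161, 150 and 175, so that central and perimedullary arrays overlapped. Mvk, mevalonate kinase, was also lower without overlap, whereas Pmvk, phosphomevalonate kinase, and Mvd, mevalonate diphosphate decarboxylase, overlapped between the outer and inner zones, with differences of -0.36 and 0.09.

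In the part of the pathway from squalene to cholesterol, 9 of 10 members were lower in perimedullary cortex without overlap (24.3% of all genes). Sqle, squalene epoxidase, a rate-limiting enzyme of sterol synthesis, gave 2140, 2030 and 2130 in subcapsular, 784, 847 and 975 in central, and 511, 492 and 599 in perimedullary cortex. The zones were fully separated, with a log2 difference of -1.93 (3.8-fold). Cyp51, lanosterol demethylase, gave 412, 459 and 634, then 230, 233 and 233, then 180, 173 and 203. Its subcapsular arrays were the most scattered, and its perimedullary difference was -1.3.

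Msmo1, the methylsterol monooxygenase, gave 616, 518 and 648 in subcapsular, 323, 276 and 309 in central, and 163, 239 and 231 in perimedullary cortex. The zones were separated for this probe set (log2 difference -1.4), but the other probe set of the gene differed by 0.46 in the opposite direction. That other probe set was weak, above the array median on only 5 of the 33 arrays. Lss, lanosterol synthase, Nsdhl and Hsd17b7, both of sterol demethylation, had differences of -1.03, -0.9 and -0.86. Tm7sf2, Ebp and Sc5d, which act on double bonds of the sterol, had smaller ones of -0.43, -0.2 and -0.21. The Sc5d arrays were only just apart, with 893 as the lowest subcapsular and 885 as the highest perimedullary signal. Another Sc5d probe set also fell, from a mean of 443 in subcapsular to 350 in perimedullary cortex. A further Sc5d probe set rose, from 270 to 446. Dhcr7, the reductase of the last step, overlapped between zones (-0.1).

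The regulators were flatter than the enzymes, and Insig1 was the exception. Insig1, an SREBP target that also restrains SREBP, gave 641, 591 and 965 in subcapsular, 476, 353 and 467 in central, and 317, 327 and 272 in perimedullary cortex. Of the 5 regulators it alone was lower in perimedullary cortex without overlap (24.3% of all genes were), with a log2 difference of -1.17. Srebf2, the SREBP that drives sterol genes, gave 606, 322 and 532, then 522, 325 and 397, then 353, 352 and 435, with wide overlap and a difference of -0.3. Srebf1 and Scap differed by -0.03 and -0.14, and Insig2 by 0.2, each with overlap between the outer and inner zones. Insig2 was highest in central cortex, where its 1870 to 2100 lay above the 1350 to 1440 of subcapsular cortex.

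Of the sterol handling genes, Tmem97, an endoplasmic reticulum protein that binds NPC1, gave 264, 199 and 264 in subcapsular, 181, 144 and 153 in central, and 11.9, 49.8 and 113 in perimedullary cortex. The zones were separated, but the perimedullary arrays were widely scattered. Its log2 difference of -1.85 moved to -1.37 without perimedullary array 1 and to -2.31 without array 3. Stard4, a cytosolic sterol carrier, gave 720, 706 and 816, then 589, 439 and 618, then 413, 399 and 453, a difference of -0.79 with overlap only between central and perimedullary arrays. Npc1, which moves cholesterol out of lysosomes, was higher in perimedullary cortex (666 to 711) than in subcapsular cortex (541 to 587).

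Among the fatty acid genes, 5 of 6 were lower in perimedullary cortex without overlap (24.3% of all genes). Fasn, fatty acid synthase, gave 4480, 5180 and 3850 in subcapsular, 2810, 3130 and 2730 in central, and 2400, 2320 and 2110 in perimedullary cortex. All zones were separated (log2 difference -0.97). Elovl6, an elongase of saturated fatty acids, gave 870, 807 and 833, then 482, 347 and 470, then 393, 403 and 399. Only its subcapsular arrays stood apart, and the difference was -1.02. Scd1, a stearoyl-CoA desaturase, gave 430, 417 and 599, then 327, 285 and 253, then 367, 361 and 348, so that central cortex was lowest. Acaca, acetyl-CoA carboxylase, and Acly, ATP citrate lyase, differed by -0.7 and -0.18, while Scd2, the second desaturase, overlapped (-0.08). The Acaca arrays were only just apart, with 1160 as the lowest subcapsular and 1130 as the highest perimedullary signal.

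Both exporters were lowest in subcapsular cortex, and Abca1 had the opposite order throughout. Abca1, which passes cholesterol to apolipoproteins, gave 2280, 2130 and 1690 in subcapsular, 3600, 3640 and 4020 in central, and 5520, 5020 and 4620 in perimedullary cortex. The zones did not overlap, and the log2 difference was 1.31 (2.48-fold). Its 3 probe sets were all higher, but by as little as 0.33, and their mean gave 0.74. The probe sets other than the brightest were weak in the subregions, with means from 12.5 to 59.6 against array medians from 78.8 to 95.5. Abcg1, which exports cholesterol to lipoproteins, gave 3010, 1480 and 1610, then 3360, 4470 and 3280, then 3660, 3990 and 3130. Subcapsular arrays were lowest with 1 of them close to the rest, and the difference of 0.88 became 1.2 without subcapsular array 1.

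Other cell markers moved along the same axis. Without overlap, 24.3% of all genes were lower and 21.9% higher in perimedullary than in subcapsular cortex, and the counts here use the same rule. Of the 11 cell cycle genes tested, 10 were lower. Their summed signal was 95000 to 98400 in subcapsular, 72600 to 81600 in central and 61900 to 69800 in perimedullary cortex. Mesenchymal genes were lower for 6 of 8 (sums of 8150 to 10700, then 2450 to 3140, then 4040 to 4670). Adipocyte genes were lower for 3 of 5 (1540 to 2800, then 1130 to 1260, then 757 to 1140). Macrophage genes were higher for 8 of 10 and lower for 1, Cd163 (-1.9). Their sums were 8990 to 10600, then 11500 to 14100, then 20500 to 22600. Mature thymocyte genes were higher for 7 of 7 (4130 to 5110, then 4020 to 4920, then 16900 to 19200). Dendritic cell genes were higher for 5 of 7 (578 to 737, then 1140 to 1570, then 2800 to 3270). Medullary epithelial genes were higher for 5 of 8 and lower for 1 (1990 to 2520, then 1690 to 1850, then 2590 to 2790). Double-positive thymocyte genes were lower for 5 of 9, and cortical epithelial genes were lower for 4 of 8 and higher for 1. Endothelial genes were higher for 2 of 6, and the 1 erythroid gene tested was lower. The part of these cells in the order of the sterol genes was not tested.

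The step from subcapsular to central cortex was larger, by the median over members, than that from central to perimedullary cortex. Against central cortex, subcapsular cortex was higher without overlap for 20 members (21.1% of all genes) and lower for 4 (17.9%), namely Insig2, Npc1, Abca1 and Abcg1. Perimedullary cortex was lower than central cortex without overlap for 12 members (14.8% of all genes) and higher for 2 (13.9%), Scd1 and Abca1. The median log2 difference of the members was 0.53 for subcapsular minus central and -0.18 for perimedullary minus central cortex. All 3 subcapsular arrays lay above the other 6 arrays in 19 members (15.8% of all genes) and below them in 3 (11.8%). Both comparisons share the central arrays.

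**Figure D2:**
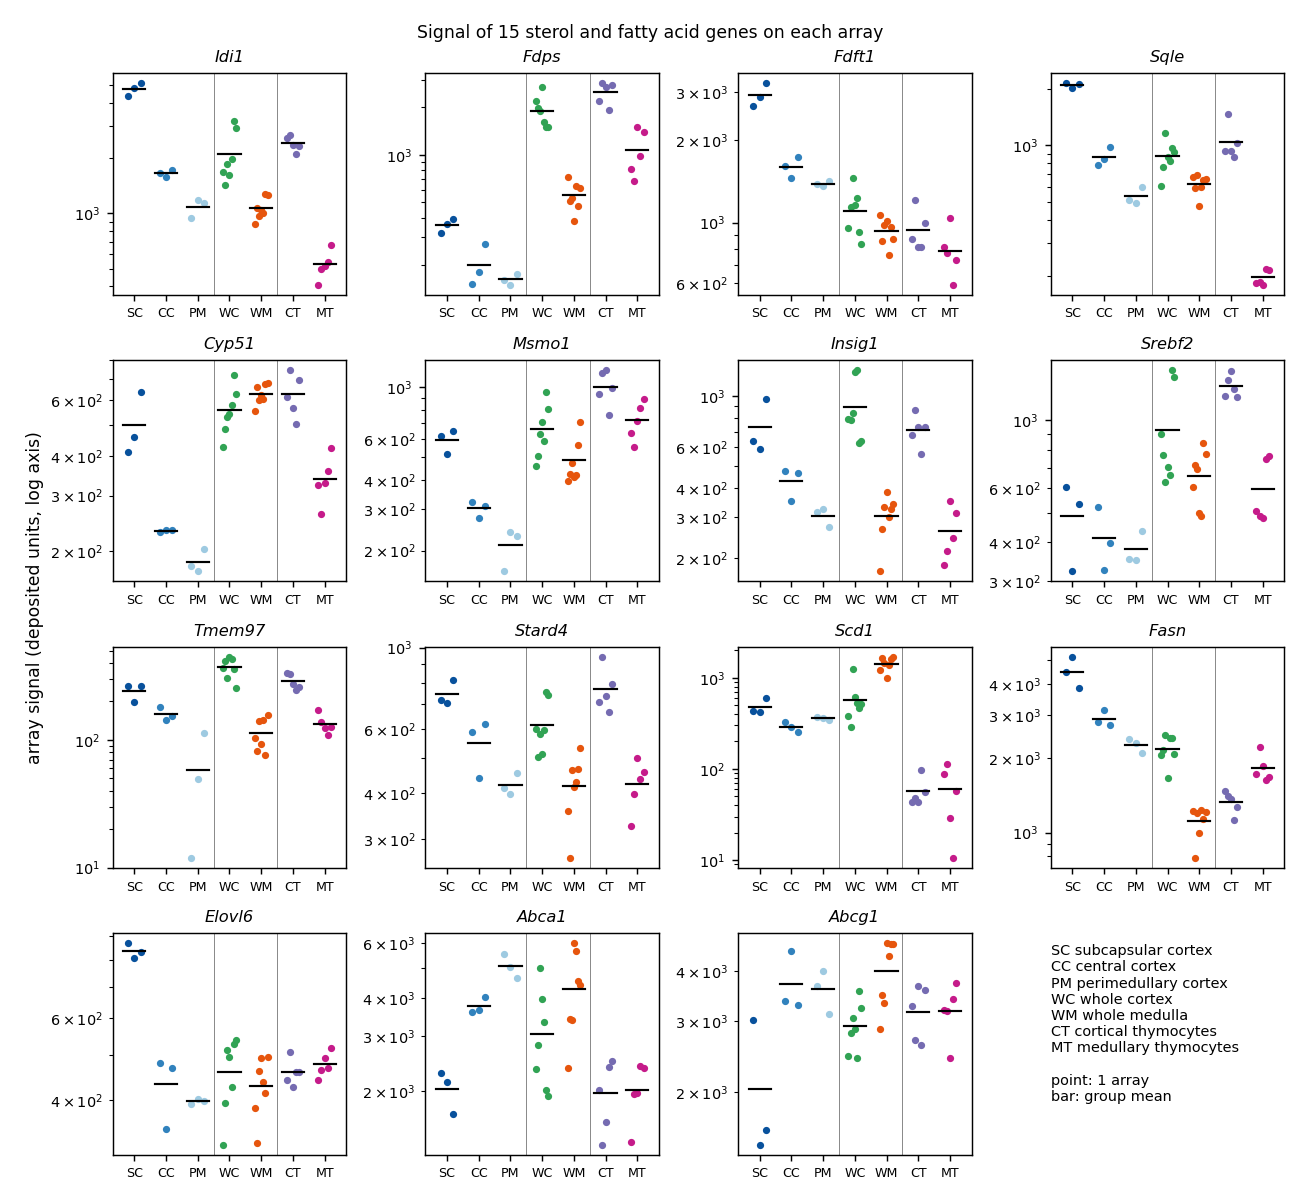
Each point is the signal of 1 array on a log axis for 15 members, with the group mean as a bar, in the 7 groups. Idi1 and Sqle are highest in subcapsular cortex and lowest in medullary thymocytes, Fasn is lower in whole medulla than in whole cortex but not so in sorted cells, and Scd1 is near 60 in both thymocyte groups against about 1430 in whole medulla.

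Whole medulla was compared with whole cortex in a fit across all genes, which called a gene at an adjusted p below 0.05 and an absolute log2 fold change of at least 1. Of the 33 members, 3 fell (5.39% of all genes fell) and 1 rose (18.7% of all genes rose). The 3 that fell were Fdps, Insig1 and Tmem97, and Scd1 rose. The median log2 fold change of the members was -0.2 against 0.11 for all genes, which was -0.02 after quantile normalization. An adjusted p below 0.05 at any fold was reached by 20 members. Arrays did not overlap for 6 members that were lower in medulla (10.8% of all genes) and for 0 that were higher (19.1%).

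Fdps had a lowest, median and highest signal of 1490, 1890 and 2690 in whole cortex and of 379, 529 and 719 in whole medulla. The groups were far apart, a log2 fold change of -1.74 (SE 0.16, limma adjusted p = 7.1e-12). Insig1 gave 626, 797 and 1290 in cortex and 176, 327 and 387 in medulla, a fall of 1.45 (SE 0.17, limma adjusted p = 1.8e-09). No medullary array reached the lowest cortical one, but among the arrays without a wide tail the fold change was -0.86, under the threshold, and among those with one -1.68. Tmem97 gave 255, 368 and 449 in cortex and 76.3, 103 and 157 in medulla, again without overlap, a fall of 1.51 (SE 0.19, limma adjusted p = 1.5e-08). Fdps and Tmem97 passed the threshold both with the wide-tail arrays alone (-1.87 and -1.61) and without them (-1.42 and -1.27).

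Scd1 gave 290, 516 and 1240 in whole cortex and 1000, 1470 and 1710 in whole medulla. Cortical array 3 lay inside the medullary range and the other cortical arrays below it, a rise of 1.38 (SE 0.23, limma adjusted p = 4.1e-06) that was 1.26 among the arrays with a wide tail and 1.71 among those without. The summed signal of 5 adipocyte genes, a cell type rich in SCD1, was 2390 to 5100 in whole cortex and 4940 to 8140 in whole medulla, and the part of such cells in the Scd1 signal was not tested. Of these 5 genes Fabp4 rose (1.03), Car3 fell (-1.16) and the other 3 were not called. Sums were also higher in whole medulla for medullary epithelial, dendritic cell, macrophage, mesenchymal, endothelial and mature thymocyte genes. They were lower for cell cycle, double-positive thymocyte and cortical epithelial genes, and the part of none of these was tested.

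Several members were lower in medulla by less than the threshold. Fasn gave 1660, 2160 and 2480 in cortex and 788, 1200 and 1230 in medulla, a log2 fold change of -0.96 (SE 0.1, limma adjusted p = 2.2e-10) with no overlap. Idi1 gave 1430, 1870 and 3200 in cortex and 879, 1050 and 1280 in medulla, also without overlap, and differed by -0.9 (SE 0.13). The highest 2 cortical values of Idi1 came from arrays 6 and 7, which have no wide tail, and the difference was -1.25 among arrays without and -0.77 among arrays with a wide tail. Stard4 differed by -0.53, Sqle by -0.46, Srebf2 by -0.43 and Msmo1 by -0.42, each with overlapping arrays. Among arrays without a wide tail, Srebf2 differed by -0.79 and among those with one by -0.29, while Fasn gave -0.93 and -0.97.

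The exporters pointed the other way without reaching the threshold. Abca1 gave 1920, 2810 and 4990 in cortex and 2380, 4410 and 6000 in medulla with wide overlap, a difference of 0.49 that was 1.17 among arrays without a wide tail and 0.22 among the others. Abcg1 differed by 0.44, Cyp51 by 0.18, Fdft1 by -0.22 and Elovl6 by -0.08. The remaining 18 members lay between -0.52 (Dhcr7) and 0.49 (Mvd). Of the cell cycle genes, 11 of 11 fell in medulla (5.39% of all genes). Their sums were 91200 to 119000 in whole cortex and 24000 to 29700 in whole medulla, and their part in these differences was not tested.

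**Figure D3:**
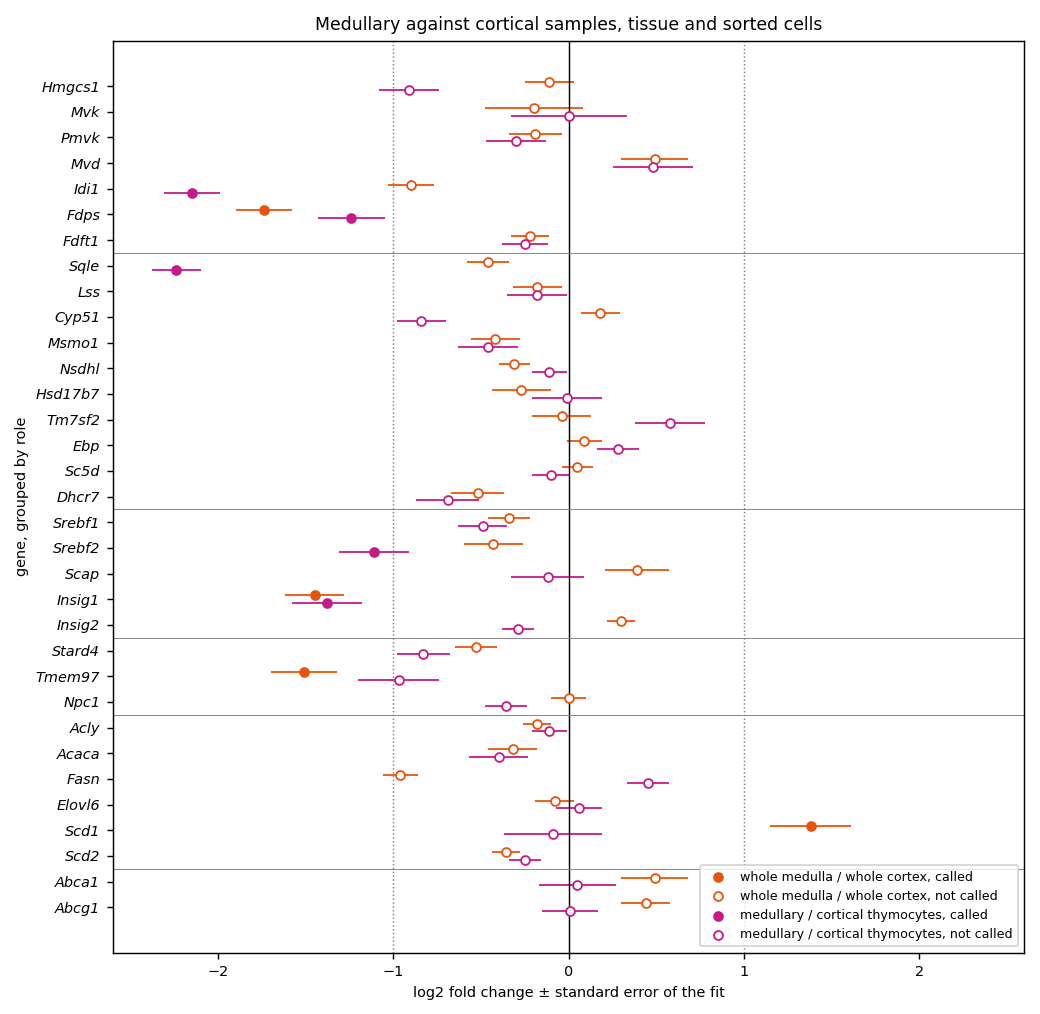
Log2 fold changes with the standard error of the fit for the 33 members (rows, grouped by role), whole medulla over whole cortex in orange and medullary over cortical thymocytes in magenta, filled where a gene was called. Idi1 and Sqle lie near -2 in sorted cells only, Fdps and Insig1 are filled in both, and Fasn and Cyp51 lie on opposite sides of 0 in tissue and sorted cells. A second probe set of Cyp51, not shown here, was lower in the medullary samples of both kinds.

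Sorted medullary thymocytes were compared with sorted cortical thymocytes, which were gated by CD3 and so differ in maturity by design. Here 5 of 33 members fell (6.31% of all genes) and 0 rose (7.69% of all genes): Sqle, Idi1, Insig1, Fdps and Srebf2. At any fold, 17 members had a limma adjusted p below 0.05, and 20 an unadjusted p below 0.05. The median log2 fold change was -0.25 for the members and 0.07 for all genes. Arrays did not overlap for 13 members lower in medullary cells (16.3% of all genes) and 3 higher (16.7%), Mvd, Tm7sf2 and Fasn.

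Sqle gave 937, 1460, 932, 860 and 1030 in cortical thymocytes and 184, 187, 180, 219 and 216 in medullary thymocytes. The medullary arrays were nearly alike and all far below, a fall of 2.24 (SE 0.14, 4.72-fold, limma adjusted p = 3.7e-16). Idi1 gave 2580, 2690, 2370, 2100 and 2340 against 408, 496, 518, 543 and 673, with no overlap and a fall of 2.15 (SE 0.16, 4.45-fold, limma adjusted p = 3.7e-14). Insig1 gave 676, 865, 732, 561 and 736 against 187, 215, 353, 244 and 315, a fall of 1.38 (SE 0.2, limma adjusted p = 3.5e-07).

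Fdps gave 2180, 2840, 2710, 1930 and 2780 in cortical and 810, 687, 1490, 989 and 1400 in medullary thymocytes. The groups were separate although medullary cells were spread widely, and the fall was 1.24 (SE 0.19, limma adjusted p = 9.8e-07). Srebf2 gave 1200, 1350, 1450, 1270 and 1190 against 505, 488, 479, 750 and 768, a fall of 1.11 (SE 0.2, limma adjusted p = 2.5e-05). The medullary arrays 1 to 3, which have a wide tail, were the low ones, and without them the difference was -0.75 and no longer passed the threshold, while Sqle, Idi1, Insig1 and Fdps still passed it.

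Other members were lower in medullary thymocytes without passing the fold threshold. Tmem97 differed by -0.97 (SE 0.23), just short of it, and passed with -1.11 among arrays without a wide tail. Hmgcs1 differed by -0.91, Cyp51 by -0.84, Stard4 by -0.83 and Msmo1 by -0.46, and of these only Msmo1 had overlapping arrays. Fasn gave 1480, 1410, 1370, 1120 and 1270 in cortical and 1730, 2230, 1860, 1640 and 1680 in medullary thymocytes, so that it was higher in medullary cells without overlap, by 0.45 (SE 0.12, limma adjusted p = 0.0022). Fdft1, Scd1, Elovl6, Abca1 and Abcg1 lay between -0.25 and 0.06, and the other 17 members between -0.69 (Dhcr7) and 0.58 (Tm7sf2).

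In the same sorted cells 10 of 11 cell cycle genes fell (6.31% of all genes). Their sums were 77500 to 90000 in cortical and 21300 to 32600 in medullary thymocytes, and their part in the sterol differences was not tested. Macrophage genes summed to 390 to 515 in cortical and 507 to 662 in medullary thymocytes, against 10500 or more in every whole tissue array. The sorted cells thus held little signal of that cell type.

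The compartment difference of tissue was set against that of sorted cells with an interaction term, which asks whether medulla over cortex differs between them. For 4 members the tissue difference was the higher one (12.8% of all genes) and for 1 the lower (2.22%). Sqle differed by -0.46 in tissue and by -2.24 in sorted cells, an interaction of 1.78 (SE 0.18, limma adjusted p = 6.5e-10). Idi1 differed by -0.9 and -2.15, an interaction of 1.25 (SE 0.2, limma adjusted p = 8.7e-06), which was 0.7 and under the threshold among arrays without a wide tail. Both genes were lower in the medullary samples of either kind.

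Fasn ran in opposite directions, -0.96 in tissue and 0.45 in sorted cells, an interaction of -1.41 (SE 0.15, limma adjusted p = 4.6e-09) that remained at -1.25 without the wide tails. Scd1 was also called, with an interaction of 1.47, but its signals in sorted cells were mostly below the median of their array, so that a difference there could not be measured. Cyp51 differed by 0.18 in tissue and -0.84 in sorted cells, and its interaction of 1.01 (SE 0.18, limma adjusted p = 2.7e-05) was at the threshold. It was 0.84 with quantile normalization, 0.6 with the mean of its probe sets and 0.65 without the wide tails, each below the threshold. A second probe set of Cyp51 fell in tissue too, with means of 420 in whole cortex and 311 in whole medulla. In sorted cells that probe set fell from 394 in cortical to 256 in medullary thymocytes. Fdps and Insig1, lower in both kinds of sample, had interactions of -0.5 and -0.07, neither of them called.

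Tissue was next compared with the thymocytes sorted from the same compartment. Whole cortex and cortical thymocytes differed in 1 member, Scd1, which was higher in tissue (9.64% of all genes were), and 0 members were lower (1.52% of all genes), while 12 members had an unadjusted and 9 an adjusted p below 0.05 in limma. Scd1 gave 42.9, 47.7, 43, 98.3 and 55.8 in cortical thymocytes, and 88.3, 113, 28.6, 10.5 and 56.7 in medullary thymocytes, against 290 to 1240 in whole cortex and 1000 to 1710 in whole medulla. It passed the filter on low signals mainly through the tissue arrays, so that a difference from the sorted cells was built in and its fold and p are not given. Adipocyte genes summed to 53 to 248 in the sorted cells.

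Whole medulla was also higher than medullary thymocytes for Sqle and Abca1, so that 3 members rose (19.5% of all genes) and 0 fell (1.23%). Sqle was higher by 1.53 (SE 0.13, limma adjusted p = 8.4e-13), with 474 to 694 in tissue against 180 to 219 in cells, and by 1.48 without the wide tails. Idi1 stood just under the threshold with a fold of 1.99. Abca1 was higher by 1.03 (SE 0.2, limma adjusted p = 6.1e-05), a call that was lost with the mean of its probe sets (0.25) and without the wide tails (0.89). Unadjusted and adjusted limma p-values were below 0.05 for 21 and 16 members.

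The 3 subregions were also set against whole cortex, of which they are zones. Against the whole cortex arrays, the subregion arrays were higher without overlap for 6 members (12.5% of all genes) and lower for 2 (10.3%). Fdps gave 150 to 393 in the subregions and 1490 to 2690 in whole cortex, a log2 difference of -2.91, and Srebf2 gave 322 to 606 against 631 to 1460 (-1.03). Scap (1.61), Tm7sf2 (1.56) and Hmgcs1 (1.31) were among the higher ones. Probe sets of the same gene often disagreed here: of 21 members with more than 1 probe set above the filter, 9 had all of them on the same side of 0. For Hmgcs1 they ran from -2.03 to 1.31, for Acly from -2.82 to 0.83 and for Scd2 from -3.74 to -0.06. The subregion arrays had no wide tail, and 5 of the 7 whole cortex arrays did, and the part of this in the differences was not tested.

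**Figure D4:**
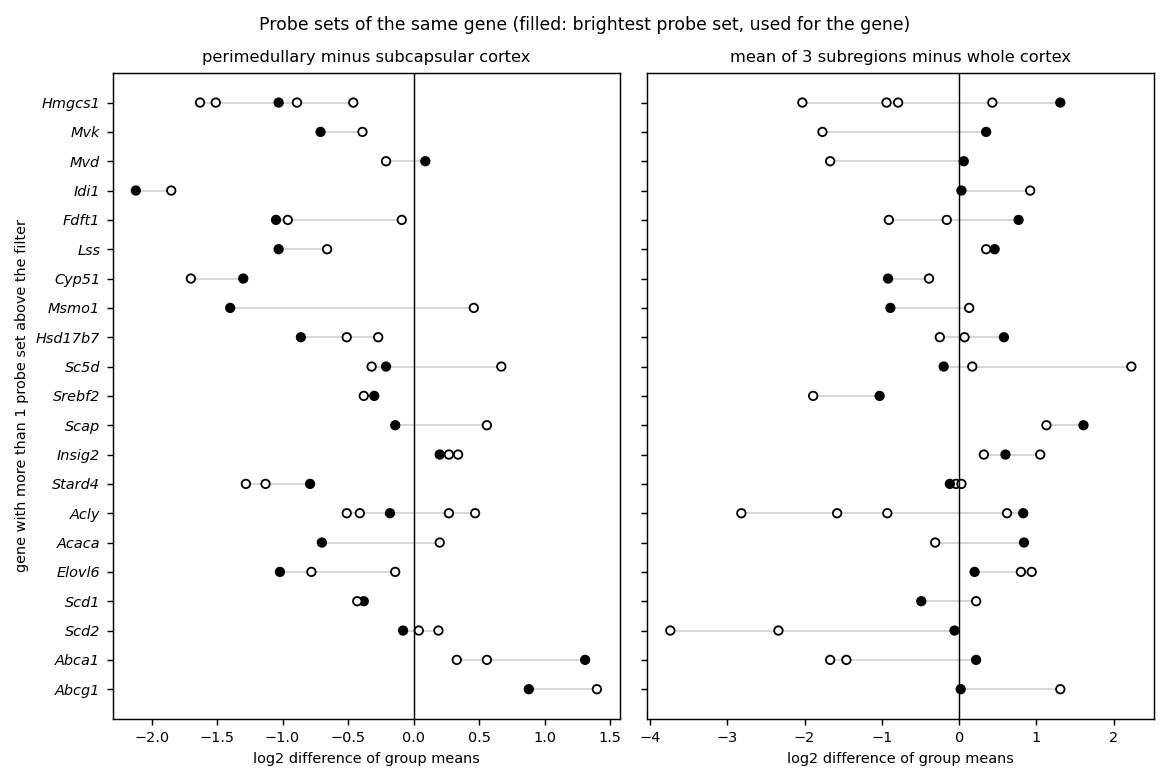
Log2 differences of each probe set above the filter for the 21 members with more than 1, with the brightest probe set filled. Between perimedullary and subcapsular cortex the probe sets of 14 members lie on the same side of 0, and between the subregions and whole cortex those of 9, with spreads of over 3 log2 units for Hmgcs1, Acly and Scd2.

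Further genes of lipid pathways were taken from a list of 30, of which 23 were tested. Between whole medulla and whole cortex, 3 of the 23 rose (18.7% of all genes) and 3 fell (5.39%). Those that rose were Ch25h, a cholesterol hydroxylase that makes an oxysterol (2.82), Cyp27a1, another sterol hydroxylase (1.52), and Npc2, the lysosomal partner of NPC1 (1.25). Those that fell were Lbr, which carries a sterol reductase domain (-1.57), Lipa, the lysosomal acid lipase (-1.42), and Fads2, a fatty acid desaturase (-1.22). Between medullary and cortical thymocytes 6 of the 23 fell (6.31% of all genes) and 1, Npc2, rose (1.31, with 7.69% of all genes rising). The largest falls were in Fads2 (-3.51), Acsl3, an acyl-CoA synthetase (-1.89), and Apoe, a lipoprotein component (-1.55). Apoe signals of sorted cells were far below those of tissue, 17.1-fold in cortex and 90.8-fold in medulla. Between perimedullary and subcapsular cortex 10 were higher (21.9% of all genes) and 6 lower (24.3%) without overlap. Among them were Fads2 (-1.45), Apoe (1.24) and Acsl3 (-0.91).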

How the data were processed

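The series holds 33 Affymetrix mouse arrays. The deposited values are linear array signals (intensity) made with Affymetrix Expression Console 1.0 and MAS5, per the submitters' processing notes. Background settings and scan dates are not given in the sources used here. The mean signal, trimmed by 2% at each end, lay between 492 and 498 on every array, so each array had been scaled on its own.

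Of 45037 probe sets, 34945 had 1 gene symbol, 932 several and 9160 none, and 34741 symbols were looked up by gene number, with 0 changed. Before log2, 26.2 was added as an offset (the arrays' median 25th percentile). Probe sets above the array median in at least 3 arrays were kept, and a gene was represented by its brightest probe set. All arrays were fitted with 7 group means in limma 3.58.1 (R 4.3.3) with a trended prior, leaving 26 residual degrees of freedom. Genes were called at a Benjamini-Hochberg adjusted p below 0.05, 2-sided, over all 13463 genes, and an absolute log2 fold change of at least 1. Fold changes are on the log2(signal + offset) scale, which understates changes of weak signals. Standard errors (SE) are those of the fit. The fit was tested on simulated data.

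For the subregions no test was made, and genes whose arrays did not overlap were counted. The members, gene lists, comparisons and the limit for a wide tail were chosen with earlier results of these data known. Members described in full were those with the 2 largest changes within a role in the medulla to cortex comparisons (tissue and sorted cells) or in perimedullary against subcapsular cortex; others mentioned were picked after their values were seen. Replicate numbers did not pair the arrays: deviations of same-numbered arrays correlated between -0.07 and 0.26, so the fit has no block. Alternatives changed the offset, filter, normalization, probe set rule, samples fitted, block, array weights and arrays included. Promoter windows are from RefSeq, and 8 members had no entry.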

Additional observations from a re-analysis of the deposited data

Results flagged for a closer look

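The interaction term of the limma fit across all genes called 5 members. It asks whether the difference between medullary and cortical samples is the same in dissected tissue and in sorted thymocytes. The difference was called higher in tissue for 4 of them, Scd1 included (12.8% of all genes), and lower for 1 (2.22%). For 33 members this is a share near that of all genes. Sqle had an interaction of 1.78 (SE 0.18, adjusted p = 6.5e-10), Idi1 of 1.25 (SE 0.2, adjusted p = 8.7e-06) and Cyp51 of 1.01 (SE 0.18, adjusted p = 2.7e-05), all with a more negative difference in sorted cells than in tissue. Scd1 had an interaction of 1.47, with a rise in whole medulla and sorted-cell signals mostly below the median of their array. A difference could not be measured in those cells, so the SE and p of Scd1 are not given. Fasn had an interaction of -1.41 (SE 0.15, adjusted p = 4.6e-09), lower in whole medulla than in whole cortex and higher in medullary than in cortical thymocytes. Without the arrays with a wide tail these values were 1.6, 0.7, 0.65, 2.27 and -1.25 for Sqle, Idi1, Cyp51, Scd1 and Fasn. The effects of extraction kit and RNA source cannot be told apart here. Of 60 sets of 4 to 10 arrays examined for a single array far from the rest, 0 had one, where about 1 in 20 would by chance.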

How the results depend on the processing

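Counts of members kept within 1.5 times their value in most settings. With quantile normalization, 2 members were lower in the interaction (Tmem97 and Fasn) and 1 (Tm7sf2) in whole medulla against medullary thymocytes. With the mean of a gene's probe sets, 5 members were higher in perimedullary than in subcapsular cortex and 5 lower in the subregions than in whole cortex. With probe sets of plain suffix only (31 members), 3 members were higher and 4 lower in the subregions than in whole cortex. In that setting Msmo1 was 0.46 (SE 0.45) higher in perimedullary than in subcapsular cortex, the reverse of the main value. Msmo1 then rested on a weak probe set, above the array median on 5 arrays. The replicate block gave 2 members lower in whole cortex than in cortical thymocytes, Dhcr7 and Scap, and moved no other count beyond that range. Without the wide-tail arrays, 2 members rose in whole medulla against whole cortex (Scd1 and Abca1), 2 had a higher interaction (Sqle and Scd1), 1 fell in whole medulla against medullary thymocytes (Fdps) and 5 were lower in the subregions than in whole cortex. The causes were not tested. Leaving out each array in turn gave 0 to 1 member lower in whole cortex than in cortical thymocytes (1, Dhcr7, without whole cortex array 6 or 7) and 0 to 1 lower in whole medulla than in medullary thymocytes (1, Fdps, without medullary thymocyte array 2). Of the named members, Srebf2 lost its call in sorted cells with the mean of probe sets (-0.92), with array weights (-0.96) and without wide tails (-0.75), and Cyp51 lost its interaction with array weights (0.99) and without each of 7 single arrays (0.93 at the lowest): cortical thymocyte 2 or 5, medullary thymocyte 2, whole cortex 1 or 2, and whole medulla 6 or 7. Abca1 lost its call in whole medulla against medullary thymocytes with array weights (0.96) and without medullary thymocyte 1 (0.9) or whole medulla 4 or 5 (0.94 and 0.96). Idi1 gained one there with quantile normalization (1.07), an offset of 6.55 (1.02), the wide-tail arrays alone (1.03), without them (1.04), and without medullary thymocyte 4 or 5 or whole medulla 1, 3, 4 or 5 (1.08 at the highest). Fasn gained one in tissue without whole cortex 4 (-1.02), Tmem97 in sorted cells without cortical thymocyte 4 or 5 or medullary thymocyte 1 (-1.05 at the lowest). Under quantile normalization, 31 of 33 members kept the sign of their tissue difference, and 31 that of perimedullary against subcapsular cortex. The block and array weights give no value for counts of arrays that do not overlap, and too few groups had wide-tail arrays for the other comparisons. The weak signal of Tmem97 in perimedullary cortex depends on the offset: an offset of 6.55 gave -2.3 for Tmem97 between perimedullary and subcapsular cortex.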

Other observations

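Whole cortex arrays 6 and 7, which had no wide tail, stood apart from the other 5 whole cortex arrays for some members. Dhcr7 gave 1410 and 1360 on them against 616 to 777 on the others, Srebf2 1460 and 1380 against 631 to 901, and Scap 1640 and 1260 against 590 to 796. Insig1 had its lowest whole cortex signals there, 626 and 637, against 786 to 1290. Fdps was also lowest there, with 1500 and 1490 against 1620 to 2690. For Sqle these arrays lay inside the range of the others, with 963 and 923 against 605 to 1160.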
